A study of Mus musculus with 15 samples.

Results

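The late step of ageing in mouse skeletal muscle was measured in gastrocnemius from 5 old mice of 28 months and 5 middle-aged mice of 17 months, with 1 array per mouse. All were male C57BL/6 mice with free access to chow and water, and the labels name no treatment or mutation. These 10 of the 15 arrays of the series were chosen by their age label alone. The other 5 arrays, from young mice of 5 months, were used only to set the early step (17 against 5 months) beside the late one. Whole-muscle RNA was hybridised to Illumina MouseRef-8 BeadChips with 25697 probes. Values below are log2 intensities after background correction and quantile normalisation of the 10 arrays, and each difference is old minus middle-aged. A probe was tested where its signal passed a detection p of 0.05 against the negative controls on at least 5 of the 10 arrays. This left 12036 probes, of which 11361 carried the name of 1 of 8417 genes, and a gene is represented by its brightest tested probe. The comparison covers a single strain, sex and muscle, and nothing in the labels says which mice shared a cage or litter.

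The gastrocnemius of the mouse is a mixed muscle in which fast fibres predominate. With age, motor axons withdraw from some fibres, and a fibre without its nerve re-expresses genes of developing muscle, among them acetylcholine receptor subunits, the neural cell adhesion molecule and perinatal myosin. Ageing muscle also holds stressed cells that express targets of p53, a transcription factor that halts the cell cycle, and resident macrophages that present antigen and clear debris. Slow fibres carry their own set of contractile proteins and depend on continued nerve activity.

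On the old arrays 11891 to 12593 probes were detected and the mean intensity before normalisation was 328 to 524, against 11761 to 12197 probes and 366 to 621 on the middle-aged arrays. Of 16 genes of the muscle fibre itself, 14 were tested, and the array medians of these genes, as deviations from the mean of all 10 arrays, spanned -0.03 to 0.06 in old and -0.08 to 0.12 in middle-aged muscle. The root mean square distance of an array to the mean of the other 4 arrays of its group was 0.608 log2 units for old replicate 3 and 0.492 for old replicate 5, against 0.296 to 0.358 for the other old arrays, so that these 2 stood apart. It was 0.457 for middle-aged replicate 5, against 0.249 to 0.312 for the other middle-aged arrays. The mean distance was 0.419 ± 0.128 in old and 0.310 ± 0.086 in middle-aged muscle (SD, n = 5 each). This difference of 0.109 did not pass a two-sided permutation test over all relabellings (p = 0.159, with 0.00794 the smallest p that the design allows). It was 0.155 without middle-aged replicate 5 (permutation p = 0.0397) and 0.166 without old replicate 4 (permutation p = 0.0476). The distances of a group share arrays and were not recomputed for each relabelling, so these p-values are approximate. Without 1 array, distances to the mean of 3 arrays were also set beside distances to the mean of 4. Probe by probe, the SD was larger among the old arrays for 73.2% of the probes, with a median SD of 0.315 in old and 0.217 in middle-aged muscle. Old replicate 5 was nearer to middle-aged replicates 1 to 4 (root mean square differences of 0.327 to 0.436) than to any other old array (0.465 to 0.757). In each of the 14 called genes below it read outside the middle-aged range, on the side of the old mice. Those genes were called with this array among the old, so their values are no test of its label. Its age label was taken as given, and whether its label or dissection differed was not tested, so that values of this array and results without it carry that limit. The results below are given for all 10 arrays and, where they change, with one or more of these 3 arrays left out. With 1 array per mouse, the p-values measure the spread between these mice, and 5 mice per age limit their precision.

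**Figure D1:**
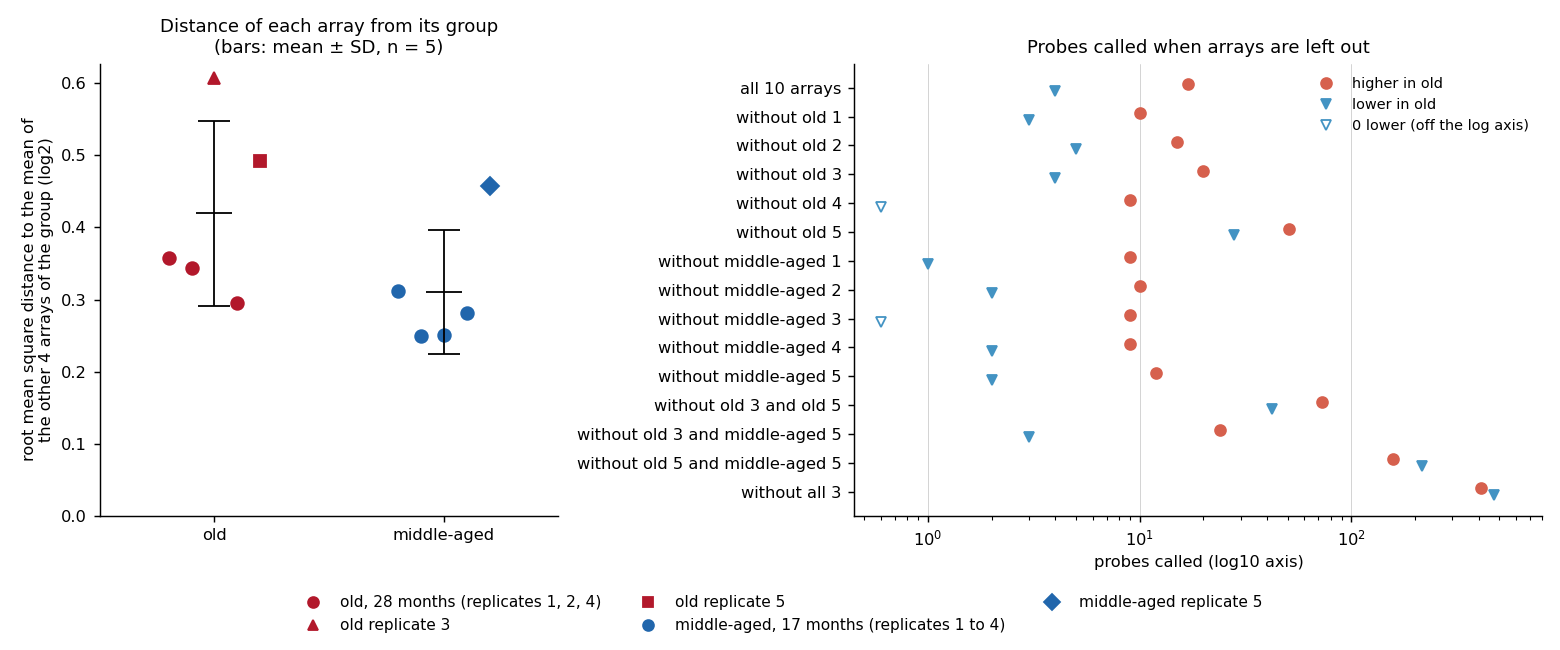
Left, the root mean square distance (log2) of each array to the mean of the other 4 arrays of its group, with bars for the mean ± SD of 5 arrays. Right, on a log10 axis, the number of tested probes called higher (circles) or lower (triangles) in old muscle when the named arrays are left out, 17 and 4 with all 10 arrays and 411 and 474 without old replicates 3 and 5 and middle-aged replicate 5.

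Between 17 and 28 months, few genes passed the test over all probes, and most of those that did differed by more than 2-fold. Of all tested probes, 21 (0.174%) differed at an adjusted p under 0.05 (limma, Benjamini-Hochberg adjustment over all tested probes), 17 higher and 4 lower in old muscle. They came from 15 named genes, 12 higher and 3 lower, and 1 probe without a name. By the brightest probe of each gene, 11 genes (0.131%) rose and 3 (0.0356%) fell. The values of the old and the middle-aged mice did not overlap for any of the 21 probes, which held for 173 probes (1.44%) in all. At an unadjusted p under 0.05, 324 genes (3.85%) were higher and 392 (4.66%) lower, and 46.5% of all genes had a higher estimate in old muscle. The median difference over all genes was -0.02. In whole muscle, a change in the number of cells of a type cannot be told apart from a change in the RNA of each cell.

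Sln, which encodes sarcolipin, a small protein that makes the calcium pump of the sarcoplasmic reticulum less efficient, had the largest difference of the called genes. Its log2 intensity was 12.001, 12.36, 11.66, 12.45 and 10.26 in old replicates 1 to 5, against 7.46, 7.16, 7.82, 7.81 and 7.03 in middle-aged replicates 1 to 5. Every old mouse was above every middle-aged mouse, and old replicate 5 was the lowest of the old. The rise was 19.6-fold, with a log2 difference of 4.29 ± 0.34 (SE) and an adjusted p of 4.58e-05. Without old replicate 5 it was 4.66 ± 0.21. On the uncorrected scale of the scanner the probe read 1548 to 6294 in old and 169 to 391 in middle-aged muscle.

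Chrnb1, the beta subunit of the muscle acetylcholine receptor, read 11.27, 11.04, 11.505, 11.68 and 11.31 in old muscle, against 10.50, 10.64, 10.68, 10.33 and 10.71 in middle-aged muscle. All old values lay above all middle-aged values. The rise was 1.73-fold (0.79 ± 0.14, adjusted p = 0.0428), and a further probe of the gene gave 0.84 ± 0.15 (adjusted p = 0.0346). When a single array was left out, the call of the brightest probe was lost for each middle-aged array and for old replicates 1, 3 and 4 (adjusted p = 0.0552 to 0.205). Its difference over all 10 such fits stayed between 0.71 and 0.87. This call was kept without old replicates 3 and 5 and middle-aged replicate 5 together (0.80, adjusted p = 0.00974). It was lost with each array scaled to its median in place of quantile normalisation (adjusted p = 0.748).

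The promoter of Chrnb1 is shown because the genes of receptor subunits are known targets of myogenic factors, which bind E boxes. The 300 bases run 5′ to 3′ from 250 before to 50 after the annotated start (RefSeq, GRCm38.p6, chr11:69795888-69796187, minus strand), and capitals mark matches to the E box CAGCTG or CACCTG on either strand.
Chrnb1: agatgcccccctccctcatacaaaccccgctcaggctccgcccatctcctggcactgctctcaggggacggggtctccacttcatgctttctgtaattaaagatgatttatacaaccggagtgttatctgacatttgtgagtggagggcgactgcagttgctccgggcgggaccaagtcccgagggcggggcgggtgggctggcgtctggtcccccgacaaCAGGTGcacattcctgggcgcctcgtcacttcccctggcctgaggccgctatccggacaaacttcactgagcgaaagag
One match to CACCTG, read on the other strand as CAGGTG, began at -29 from the start. Of 32841 promoters of this length, 16.3% held CAGCTG, 20.2% held CACCTG and 32.9% held either. Of the 15 genes with a called probe, 11 were matched to the promoter table, and 8 of these (72.7%) held either motif in any of their windows, against 9706 of 27018 genes (35.9%). A match is a description of the letters and not evidence that a factor binds there.

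Gadd45a and Cdkn1a, classical targets of p53 that slow or stop the cell cycle and that are also known to rise in denervated muscle, were higher in old muscle on every probe tested. Gadd45a read 11.51, 10.70, 11.37, 11.54 and 10.59 in old muscle, against 9.75, 9.69, 9.65, 9.79 and 9.42 in middle-aged muscle. The groups did not overlap, and old replicates 2 and 5 lay below the other 3 old mice. The rise was 2.80-fold (1.48 ± 0.19, adjusted p = 0.00815), and a further probe gave 1.33 ± 0.23 (adjusted p = 0.0305). Cdkn1a, which encodes the cyclin-dependent kinase inhibitor p21, read 9.43, 8.85, 9.72, 8.91 and 9.47 in old muscle, against 7.77, 8.14, 7.87, 8.05 and 7.98 in middle-aged muscle. All old values lay above all middle-aged values, here with old replicates 2 and 4 the lowest. Its rise was 2.48-fold (1.31 ± 0.18, adjusted p = 0.0102), and its further probes gave 1.26 ± 0.18 and 1.62 ± 0.24 (adjusted p = 0.0116 and 0.0138). Neither gene lost the call of its brightest probe when any one array was left out, but that of Cdkn1a was lost with each array scaled to its median (adjusted p = 0.0831).

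The promoters of these genes are shown with matches to the p53 half-site consensus in capitals. The consensus is its own reverse complement, so a match stands on both strands, and the windows are drawn from RefSeq on GRCm38.p6. The Cdkn1a window belongs to the more upstream of its annotated starts (chr17:29090729-29091028, plus strand), and the Gadd45a window to its single one (chr6:67037358-67037657, minus strand).
Cdkn1a: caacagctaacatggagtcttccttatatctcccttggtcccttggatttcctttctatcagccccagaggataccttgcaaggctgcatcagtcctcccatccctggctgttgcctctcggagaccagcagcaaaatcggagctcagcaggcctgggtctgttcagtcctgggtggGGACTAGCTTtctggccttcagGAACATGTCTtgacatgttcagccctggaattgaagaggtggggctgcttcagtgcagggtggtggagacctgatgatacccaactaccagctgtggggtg
Gadd45a: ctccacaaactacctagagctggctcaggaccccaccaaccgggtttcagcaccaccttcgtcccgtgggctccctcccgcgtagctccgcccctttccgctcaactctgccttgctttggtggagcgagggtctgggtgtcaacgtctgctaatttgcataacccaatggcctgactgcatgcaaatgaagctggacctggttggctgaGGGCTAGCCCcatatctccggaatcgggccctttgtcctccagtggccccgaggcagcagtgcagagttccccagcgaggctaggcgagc
Matches began at -73 and -51 in Cdkn1a and at -40 in Gadd45a. A match was found in any window of 3 of the 11 matched genes (27.3%), the third being Acsl6, against 9.56% of 27018 genes and 8.36% of 32841 promoters. This motif was searched after the values had been seen, and a match is no evidence of binding.

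Krt18, a type I keratin of simple epithelia, was detected on all 5 old arrays and on none of the 5 middle-aged arrays. It read 7.15, 7.02, 7.70, 6.96 and 6.77 in old muscle, against 4.59, 4.49, 4.50, 4.50 and 4.37 in middle-aged muscle. The old values were far above the narrow middle-aged range, and old replicate 3 was the highest. Because no middle-aged array exceeded background, the rise is given as at least 4.79-fold, the old mean set against the mean, over the middle-aged arrays, of the dimmest detected signal or the probe's own signal where that is higher. The measured difference was 2.63 ± 0.17 with the lowest adjusted p of all probes (5.59e-06). The probe passed the detection filter through the old arrays alone, and its middle-aged spread is that of background signal, which limits this SE and p. Krt8, the type II keratin that pairs with it in filaments and one of several genes below that were chosen after their values were seen, read 6.00, 6.31, 7.58, 5.76 and 6.24 in old muscle and 4.81, 4.82, 4.98, 5.07 and 4.96 in middle-aged muscle. These groups did not overlap either, and the difference was 1.45 ± 0.27, but it missed the threshold (adjusted p = 0.0556). Without old replicate 3 it was 1.15 ± 0.14 with an adjusted p of 0.0113, and without old replicate 5 it was 1.47 ± 0.29 with an adjusted p of 0.0427. Of 16 listed genes of epithelium and skin, 3 were tested, Krt18, Krt8 and Krt10. The keratins that define the basal skin layer, Krt5 and Krt14, were on the array and did not pass the detection filter. Krt10, of the upper skin layers, read 7.37 to 8.35 in old and 7.43 to 8.47 in middle-aged muscle.

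Other genes that rose act in signalling, calcium binding and lipid metabolism. Rrad, a small GTPase that restrains voltage-gated calcium channels, read 8.31, 8.52, 8.58, 7.72 and 7.80 in old muscle, against 6.83, 6.72, 6.27, 6.00 and 6.43 in middle-aged muscle, a rise of 3.33-fold (1.74 ± 0.22, adjusted p = 0.00674). Hpgd, the enzyme that inactivates prostaglandin E2, read 6.30, 7.26, 6.98, 6.76 and 6.59 in old muscle, against 5.75, 5.14, 5.67, 5.21 and 5.19 in middle-aged muscle, a rise of 2.61-fold (1.39 ± 0.20, adjusted p = 0.0123). Neither gene overlapped between the groups, and both kept their call without any one array. Cpne2, a copine that binds membranes in the presence of calcium, read 9.26, 9.22, 9.27, 9.68 and 9.36 in old muscle, against 8.59, 8.33, 7.78, 7.84 and 7.95 in middle-aged muscle, a rise of 2.40-fold (1.26 ± 0.18, adjusted p = 0.0102, and 0.0831 with each array scaled to its median). Mfsd7a, a transporter of the major facilitator family, read 6.66, 6.05, 6.94, 6.43 and 5.80 in old muscle and 5.08, 5.28, 5.24, 5.39 and 4.74 in middle-aged muscle (1.23 ± 0.21, 2.35-fold, adjusted p = 0.0319). The groups of both genes were separate, but the call of Mfsd7a was lost without any one of middle-aged replicates 1 to 5 or old replicates 1, 3 or 4 (adjusted p = 0.0552 to 0.116). Acsl6, which activates long-chain fatty acids, was called on 1 of its 2 probes (0.84 ± 0.14, adjusted p = 0.0302), whereas its brighter probe gave 0.33 ± 0.20 (adjusted p = 0.671).

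Among immune genes, Ccl8 and Lgals3 rose. Ccl8, a chemokine that draws monocytes, read 8.19, 6.88, 6.19, 7.86 and 7.63 in old muscle, against 4.86, 5.70, 5.28, 5.35 and 4.81 in middle-aged muscle. The groups did not overlap, and old replicate 3 was the lowest of the old. The rise was 4.44-fold (2.15 ± 0.33, adjusted p = 0.0154), with the call lost without middle-aged replicate 1, middle-aged replicate 3 or old replicate 4 (adjusted p = 0.0649, 0.0567 and 0.0627). Lgals3, or galectin-3, a lectin abundant in activated macrophages, read 9.9997, 9.87, 9.75, 9.84 and 9.29 in old muscle, against 8.10, 8.04, 8.26, 8.03 and 9.25 in middle-aged muscle. Middle-aged replicate 5 stood at the level of the lowest old mouse, old replicate 5, and the other 4 middle-aged mice were far below. The rise was 2.66-fold (1.41 ± 0.23, adjusted p = 0.0250), and without middle-aged replicate 5 it was 3.12-fold (1.64 ± 0.16, adjusted p = 6.52e-04). Its call was lost without any one of middle-aged replicates 1 to 4 or old replicates 1, 2 or 4 (adjusted p = 0.0712 to 0.103).

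Of the 3 genes that fell, Dkk3 and Frzb encode secreted proteins of families that act on the Wnt pathway. Dkk3, a secreted member of the Dickkopf family, read 9.03, 8.05, 9.25, 8.36 and 9.37 in old muscle, against 10.41, 9.92, 10.39, 10.98 and 10.50 in middle-aged muscle. No old mouse reached the lowest middle-aged mouse, and the fall was 3.09-fold (-1.63 ± 0.26, adjusted p = 0.0224), with -1.67 ± 0.25 on a further probe (adjusted p = 0.0138). Nrep, a small protein named for its rise in regenerating neurons and also made by myofibroblasts, read 9.41, 11.10, 10.56, 10.07 and 10.84 in old muscle, against 12.06, 12.01, 11.81, 12.25 and 11.71 in middle-aged muscle. The old mice were spread more widely and all lay below, a fall of 2.98-fold (-1.57 ± 0.26, adjusted p = 0.0275). Frzb, a secreted antagonist of Wnt ligands, was detected on all 5 middle-aged arrays and on no old array, and read 4.29, 4.64, 4.46, 4.39 and 4.47 in old muscle, against 5.33, 5.07, 5.27, 4.93 and 5.19 in middle-aged muscle. The groups were separate but close to background, so that the fall is given as at least 1.27-fold (-0.71 ± 0.12, adjusted p = 0.0319). Its probe passed the detection filter through the middle-aged arrays alone. By the brightest probe, all 3 calls depended on single arrays. That of Dkk3 was lost without middle-aged replicate 1, 3, 4 or 5 or old replicate 4 (adjusted p = 0.0597 to 0.0814). The further Dkk3 probe kept its call without middle-aged replicate 4 or 5, but not without middle-aged replicate 3 or old replicate 4. Nrep lost its call without middle-aged replicate 1, 2, 3 or 4 or old replicate 4 (adjusted p = 0.0840 to 0.105). Frzb lost its call without middle-aged replicate 1, 2, 3 or 5 or old replicate 1, 3 or 4 (adjusted p = 0.0574 to 0.133).

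**Figure D2:**
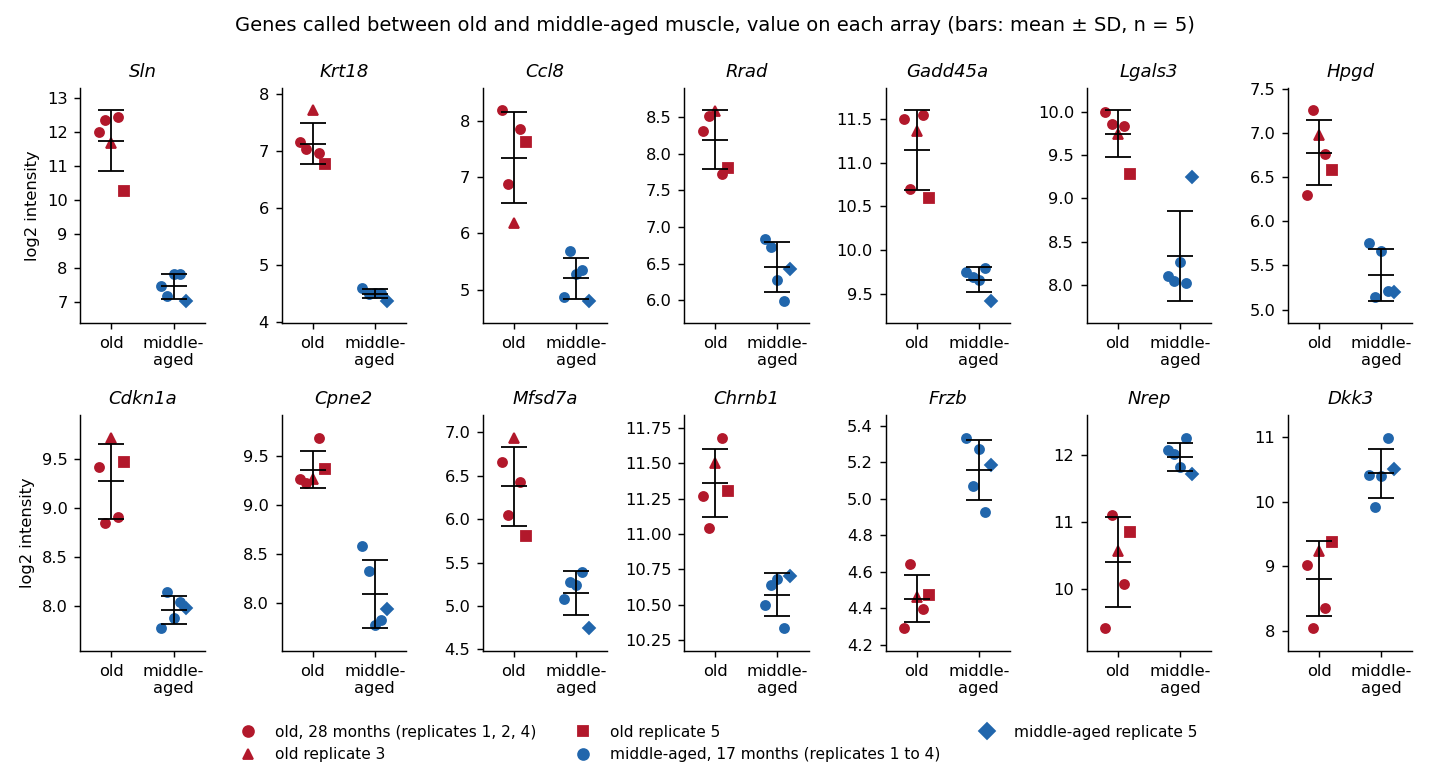
Log2 intensity of the 14 genes whose brightest probe was called, on each old array (red) and each middle-aged array (blue), with bars for the mean ± SD of 5 mice and separate symbols for old replicates 3 and 5 and middle-aged replicate 5. The groups do not overlap in any panel, with Krt18 at 6.77 to 7.70 in old and 4.37 to 4.59 in middle-aged muscle, and Lgals3 of middle-aged replicate 5 at 9.25.

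Genes of the response to denervation had mostly higher estimates. Of 28 listed genes 16 were tested, 12 had a higher estimate, 4 rose (Sln, Gadd45a, Cdkn1a and Chrnb1), none fell, and 10 were higher at an unadjusted p under 0.05, as were 3.85% of all genes, with a median difference of 0.84 against -0.02 over all genes. The median of the list, as a deviation from the mean of the 10 arrays, was 0.26, 0.31, 0.998, 0.33 and 0.20 in old replicates 1 to 5 and -0.57, -0.40, -0.37, -0.50 and -0.37 in middle-aged replicates 1 to 5. All old mice were above all middle-aged mice, and old replicate 3 stood well above the other old mice. Of the members that missed the threshold, Myh8, Ncam1 and Runx1 had the lowest p. Myh8, the perinatal myosin heavy chain, read 8.54, 8.03, 9.40, 8.22 and 6.79 in old muscle and 6.13, 6.22, 6.09, 5.86 and 6.80 in middle-aged muscle (1.98 ± 0.37, adjusted p = 0.0556), and without old replicate 5 the difference was 2.32 (adjusted p = 0.00270). Ncam1, the neural cell adhesion molecule, read 7.37, 7.74, 8.09, 7.77 and 6.99 in old muscle and 6.59, 6.54, 6.82, 6.72 and 6.87 in middle-aged muscle (0.88 ± 0.20, adjusted p = 0.199). Without old replicate 5 this was 1.03 (adjusted p = 0.0190), but a further probe of Ncam1 gave -0.01 (adjusted p = 0.994). Runx1, a transcription factor of denervated fibres, read 5.75, 5.99, 7.69, 5.94 and 5.79 in old muscle and 4.99, 4.94, 4.63, 4.81 and 5.12 in middle-aged muscle (1.33 ± 0.31, adjusted p = 0.219). In each of them old replicate 3 was the highest array, and in Myh8 and Ncam1 old replicate 5 was the lowest old array, close to middle-aged replicate 5 in both. Chrna1, the alpha subunit of the receptor, read 9.91, 9.88, 11.15, 10.05 and 8.98 in old muscle and 8.55 to 9.32 in middle-aged muscle (1.16 ± 0.30, adjusted p = 0.325). It passed without old replicate 5 (1.41, adjusted p = 0.0262).

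Other members of the same list had estimates near or below 0. Chrne, the receptor subunit of the adult junction, read 6.75 to 7.71 in old and 7.05 to 8.20 in middle-aged muscle (-0.25 ± 0.23, adjusted p = 0.766). Myod1, a myogenic factor, gave -0.20 ± 0.19 (adjusted p = 0.780), and Actc1, the cardiac actin of developing muscle, gave -0.14 ± 0.33 (adjusted p = 0.923). The embryonic receptor subunit Chrng and the delta subunit Chrnd did not pass the detection filter. Gdnf, a survival factor for motor neurons that was named after its values were seen, read 6.30, 5.93, 6.44, 6.26 and 5.51 in old muscle, against 5.09 to 5.31 on the middle-aged arrays (0.84 ± 0.17, adjusted p = 0.129). Markers of Schwann cells and nerve, of which 7 of 19 were tested, had a median difference of -0.00, with array medians of -0.16 to 0.26 in old and -0.19 to 0.22 in middle-aged muscle. That median depended on single arrays and was 0.19 without old replicate 3, 0.10 without old replicate 5, 0.12 without middle-aged replicate 5 and 0.36 without all 3.

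Of the 22 listed targets of p53 and markers of senescence, 16 were tested, 2 rose (Gadd45a and Cdkn1a, which the denervation list also holds) and none fell. Of all genes 0.131% rose. A higher estimate was found for 12 of the 16, against 46.5% of all genes, and the median was 0.26, against -0.02 over all genes. Eda2r, a receptor of the tumour necrosis factor family induced by p53, read 7.25, 6.57, 8.57, 7.03 and 6.23 in old muscle and 5.32 to 6.13 in middle-aged muscle. Its groups were separate, with old replicate 3 the highest by far, and its difference of 1.43 ± 0.35 did not pass the test (adjusted p = 0.269). It passed without old replicate 5 (1.65, adjusted p = 0.0443) and without the 3 arrays together (1.37, adjusted p = 0.00405). The targets Ccng1 and Phlda3 gave -0.00 ± 0.24 and -0.30 ± 0.21.

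Macrophage markers had higher estimates throughout, of which a single one passed the test. All 21 tested of 30 listed genes had a higher estimate in old muscle, where 46.5% of all genes did, and 13 were higher at an unadjusted p under 0.05, as were 3.85% of all genes. Lgals3 rose by the adjusted test, and the median difference was 0.55. The array medians were 0.75, 0.40, -0.29, 0.28 and 0.30 in old replicates 1 to 5, against -0.25, -0.48, -0.20, -0.24 and -0.05 in middle-aged replicates 1 to 5. Old replicates 1, 2, 4 and 5 were above all middle-aged mice, and old replicate 3 fell within the middle-aged range. Adgre1, the macrophage antigen F4/80, read 7.25, 7.54, 6.31, 6.49 and 6.20 in old muscle and 5.69 to 6.38 in middle-aged muscle (0.76 ± 0.26, adjusted p = 0.512). C1qb, a chain of the first complement component, read 8.93, 8.66, 7.46, 8.27 and 8.69 in old muscle and 7.64 to 8.01 in middle-aged muscle (0.55 ± 0.24, adjusted p = 0.589). In C1qb 4 of the 5 old mice were above every middle-aged mouse and old replicate 3 was below every one. The markers Cd68 and Csf1r are not on the array under those names.

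Genes of antigen presentation and complement, of which 2 of class II presentation and 3 of complement are also counted as macrophage markers, had positive medians and no call. Of 14 listed genes of MHC class II presentation 10 were tested, with a median of 0.31 and array medians of 0.75, 0.15, -0.58, 0.32 and -0.04 in old against -0.30 to -0.05 in middle-aged muscle. H2-Ab1, a chain of the class II molecule, read 10.47, 9.81, 8.65, 9.79 and 9.46 in old muscle and 8.75 to 9.11 in middle-aged muscle (0.68 ± 0.26, adjusted p = 0.522). Old replicate 3 was again below the middle-aged range and the other 4 old mice above it. The class II median was 0.17 without old replicate 1 and 0.47 without old replicate 3. The 11 tested complement genes had a median of 0.14, with 8 higher and 3 lower estimates, and this was 0.08 to 0.30 when a single array was left out. The complement component gene C4b read 8.52, 7.77, 7.48, 8.43 and 8.32 in old muscle and 7.28, 7.51, 7.26, 7.33 and 7.96 in middle-aged muscle (0.63 ± 0.22, adjusted p = 0.512), so that the groups overlapped. The 16 tested genes of MHC class I and the immunoproteasome had a median of 0.28, which was 0.16 without old replicate 1. Tap2, which carries peptides into the endoplasmic reticulum for class I molecules, read 8.09, 7.63, 7.46, 7.90 and 7.36 in old muscle and 6.63 to 7.15 in middle-aged muscle, with no overlap and a difference of 0.78 ± 0.17 (adjusted p = 0.199), which without old replicate 5 was 0.85 (adjusted p = 0.0489). Of 23 tested interferon response genes 19 had a higher estimate and none was called (median 0.25). Among 23 tested chemokines and cytokines Ccl8 alone was called and the median was 0.04, or -0.01 without old replicate 1. Cxcl13, which attracts B cells, read 8.80, 7.39, 5.81, 7.12 and 6.90 in old muscle and 4.71 to 5.55 in middle-aged muscle (2.01 ± 0.40, adjusted p = 0.104). Without old replicate 3, its lowest old value, the difference was 2.37 ± 0.33 with an adjusted p of 0.0122, and without old replicate 5 it was 2.07 with an adjusted p of 0.04997.

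Few markers of other white blood cells passed the detection filter. Of neutrophil and of B and plasma cell markers 3 each were tested, and of T and natural killer cell markers 2, while Cd3e, Cd3g, Cd79a and S100a9 were not tested. S100a8, an abundant protein of neutrophils, read 8.78, 6.15, 7.16, 7.22 and 7.28 in old muscle and 6.35, 6.11, 4.86, 5.38 and 4.61 in middle-aged muscle. These values overlapped and the difference of 1.86 ± 0.43 did not pass the test (adjusted p = 0.220). Of the 3 tested neutrophil markers 1 had a higher and 2 a lower estimate, with a median of -0.01.

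**Figure D3:**
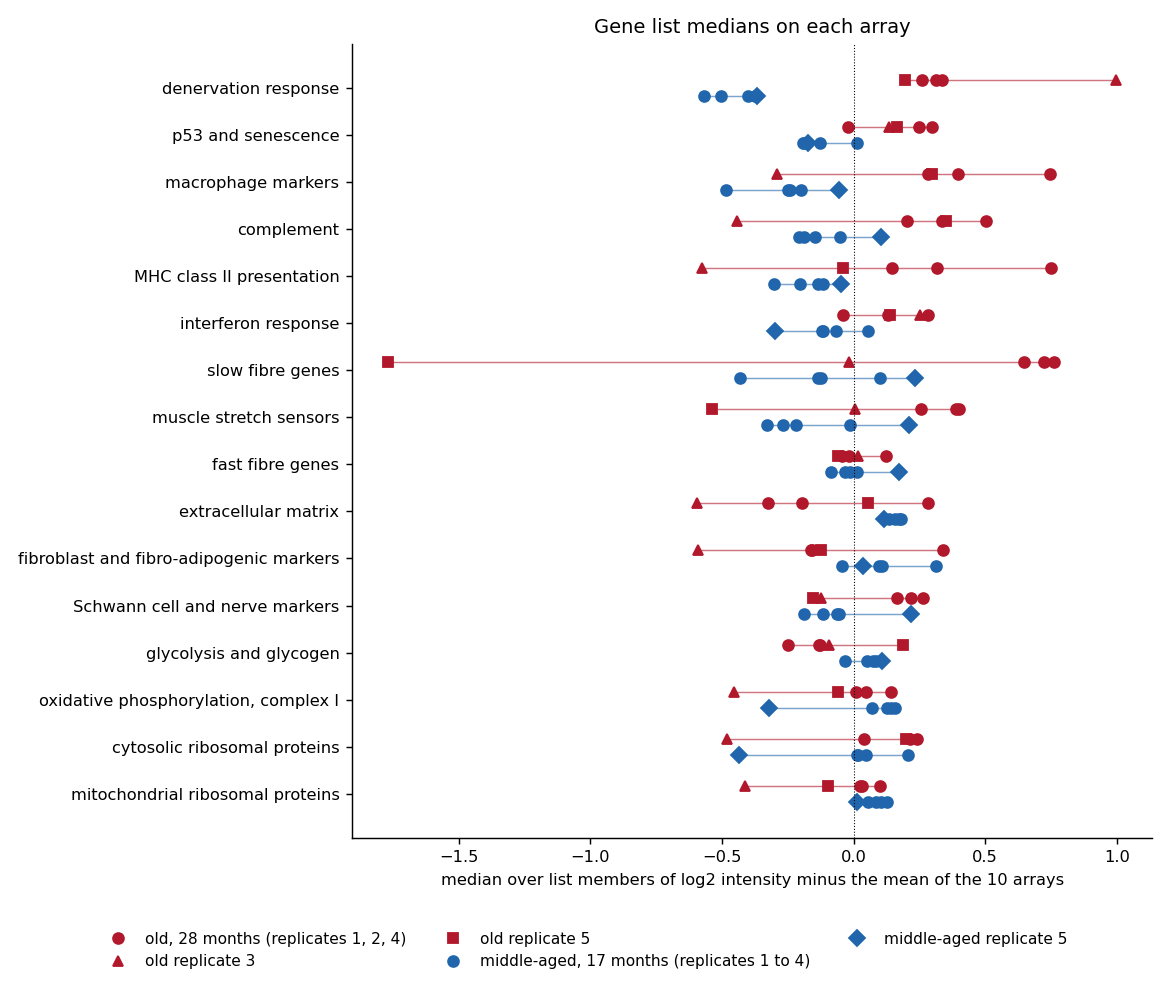
Median over the tested members of each gene list of the log2 intensity minus the mean of the 10 arrays, with old arrays in red above and middle-aged arrays in blue below. The denervation list separates the ages, with old arrays at 0.20 to 0.998 and middle-aged arrays at -0.57 to -0.37, whereas the slow fibre list reaches -1.77 on old replicate 5.

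The slow fibre genes depended on old replicate 5. None of the 15 tested genes of 16 listed was called with all 10 arrays, and their median difference was 0.20. The array medians were 0.65, 0.72, -0.02, 0.76 and -1.77 in old replicates 1 to 5, against -0.14, -0.43, 0.10, -0.12 and 0.23 in middle-aged replicates 1 to 5. Old replicates 1, 2 and 4 were above all middle-aged mice, old replicate 3 was among them, and old replicate 5 was far below every other array. Myh7, the slow myosin heavy chain, read 9.52, 9.44, 9.24, 8.35 and 4.93 in old muscle, against 6.91, 6.91, 8.11, 7.21 and 8.25 in middle-aged muscle. Every old mouse but old replicate 5 was above every middle-aged mouse, and the difference over all mice was 0.82 ± 0.71 (adjusted p = 0.755). The slow troponin I gene Tnni1 read 9.34, 9.68, 8.60, 9.55 and 5.82 in old muscle and 7.56 to 8.41 in middle-aged muscle. The slow tropomyosin gene Tpm3 read 10.69, 10.84, 9.92, 10.71 and 6.29 in old muscle and 8.54 to 9.76 in middle-aged muscle. Tnnc1, the troponin C of slow and cardiac muscle, read 12.89 to 13.85 on the other 4 old arrays and 10.50 on old replicate 5. Without old replicate 2 the median of the list was 0.05. Without old replicate 5 it was 0.65 and 3 members were called, Myh7 (1.65, adjusted p = 0.0399), Tnni1 (1.25, adjusted p = 0.0307) and Tpm3 (1.36, adjusted p = 0.0254). In that fit 0.656% of all tested probes were called.

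The muscle stretch sensors, Z-disc and LIM proteins of which 4 are also counted as slow fibre genes, had 15 tested members, no call and a median of 0.20, which was 0.09 without old replicate 1 and 0.45 without old replicate 5. Ankrd1, a titin-binding ankyrin repeat protein that also stands in the denervation list, read 10.43, 10.72, 12.06, 10.35 and 9.16 in old muscle and 8.64 to 9.60 in middle-aged muscle. Old replicate 5 lay within the middle-aged range and the other old mice above it (1.48 ± 0.39, adjusted p = 0.329), and without it the difference was 1.83 (adjusted p = 0.0216). Csrp3, the muscle LIM protein, read 11.93, 12.16, 10.84, 12.46 and 9.54 in old and 10.19 to 11.504 in middle-aged muscle (0.54 ± 0.46, adjusted p = 0.753). The 16 tested fast fibre genes had a median of -0.06, with array medians of -0.06 to 0.12 in old and -0.08 to 0.17 in middle-aged muscle. The sign of this median depended on the scaling, at 0.01 with median scaling and 0.24 with the methods' Z scores.

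**Figure D4:**
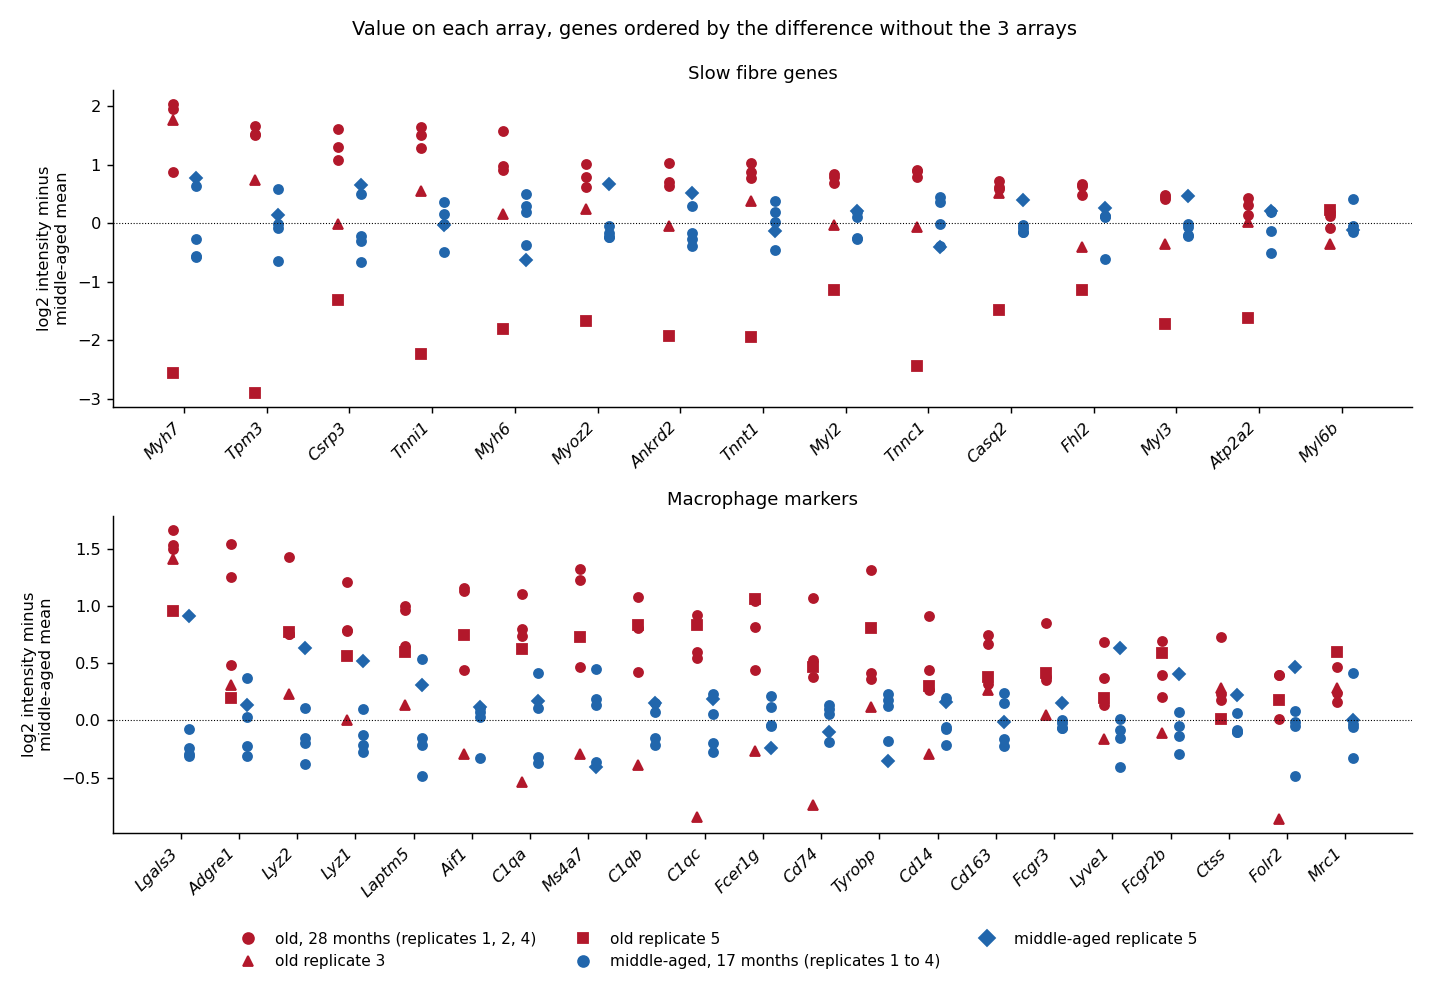
Log2 intensity of each slow fibre gene (top) and macrophage marker (bottom) on each array minus the middle-aged mean, old in red left of middle-aged in blue. Old replicate 5 (squares) is the lowest array for nearly every slow fibre gene, with Myh7 at 4.93, and old replicate 3 (triangles) is the lowest old array for many macrophage markers, with C1qb at 7.46.

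Genes of the extracellular matrix had mostly lower estimates. Of 39 tested members of 52 listed, 32 had a lower estimate in old muscle, where 46.5% of all genes had a higher one, 11 were lower at an unadjusted p under 0.05, as were 4.66% of all genes, none was called, and the median was -0.26. The array medians were -0.20, 0.28, -0.60, -0.32 and 0.05 in old muscle and 0.11 to 0.18 in middle-aged muscle, so that old replicate 2 was above the middle-aged range and the others below it. Col1a1, a chain of fibrillar collagen I, read 6.09, 7.0003, 5.58, 5.596 and 7.42 in old muscle and 7.01, 7.35, 8.05, 7.82 and 7.38 in middle-aged muscle (-1.19 ± 0.34, adjusted p = 0.411). Old replicates 1, 3 and 4 were well below the middle-aged mice and old replicates 2 and 5 near or among them, and without old replicate 5 the difference was -1.45 (adjusted p = 0.0453). Col15a1, a collagen of the basement membrane zone, gave -0.995 ± 0.26 (adjusted p = 0.325). Timp1, an inhibitor of matrix proteases, gave 0.72 ± 0.26 (adjusted p = 0.512). Fibroblast markers, 20 tested of 23, had a median of -0.22, which was -0.10 without old replicate 3 and -0.34 without old replicate 2.

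Energy metabolism and translation showed small differences. Of all genes, 46.5% had a higher estimate in old muscle. The 33 tested genes of complex I had a median of -0.10, with 25 lower estimates, and the 39 tested genes of complexes II to V a median of -0.09, with 32 lower estimates, and none was called. On both lists middle-aged replicate 5 (-0.32 and -0.25) was far below the other middle-aged arrays, and old replicate 3 (-0.45 and -0.33) was lower still. When a single array was left out, the medians ranged from -0.16 without middle-aged replicate 5 to -0.02 without old replicate 3 for complex I and from -0.17 to -0.03 without the same arrays for complexes II to V. With the methods' Z scores they were -0.01 for complex I and 0.03, of opposite sign, for complexes II to V. With median scaling they were -0.18 and -0.14, where the median over all genes was -0.07. Of 24 tested genes of glycolysis and glycogen metabolism 16 had a lower estimate and none was called, with a median of -0.14, which was -0.08 without old replicate 1 and 0.02 with the methods' Z scores. Ldha, the muscle lactate dehydrogenase, read 13.72, 14.02, 14.12, 14.001 and 14.49 in old muscle and 14.34 to 14.60 in middle-aged muscle (-0.39 ± 0.14, adjusted p = 0.512), with old replicate 5 alone inside the middle-aged range. The 52 tested cytosolic ribosomal proteins had a median of 0.08, with old replicate 3 at -0.48 and middle-aged replicate 5 at -0.43 and the other arrays of both ages at 0.01 to 0.24. Their median was 0.20 without old replicate 3 and -0.01 without middle-aged replicate 5. The 68 tested mitochondrial ribosomal proteins had a median of -0.12, or -0.04 without old replicate 3. Of 21 tested genes of Wnt signalling and its antagonists, Dkk3 and Frzb fell and 15 had a lower estimate (median -0.18, or -0.09 without old replicate 1). By the adjusted test 0.0356% of all genes fell.

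Leaving out arrays changed how many genes were called. Without old replicate 5 alone and without the 3 arrays together, the size of the differences called also changed. Without old replicate 5 alone, 79 probes (0.656%) were called, 51 higher and 28 lower. Without old replicate 3 alone there were 24, and without middle-aged replicate 5 alone 14, so neither array taken out by itself moved the count of 21 by more than 1.5 times. Other arrays moved it further, to 10, 12, 9 and 11 without middle-aged replicates 1, 2, 3 and 4 and to 13 and 9 without old replicates 1 and 4. The number rose with pairs, to 115 where both old arrays were dropped and 373 where old replicate 5 went together with middle-aged replicate 5, a pair added after the data were seen, but only to 27 for old replicate 3 together with middle-aged replicate 5. Without all 3, 885 probes (7.35%) were called, 411 higher and 474 lower. By the brightest probe of each gene, 290 genes (3.45%) were higher and 339 (4.03%) lower. These 3 arrays were left out because they stood far from their groups, which by itself narrows the spread between the 7 arrays kept, so the larger counts are a measure of their influence and not a second test. The median SE of a difference was 0.177 with all 10 arrays and 0.181 without old replicate 5. It was 0.184 without old replicate 5 and middle-aged replicate 5, and 0.160 without the 3 arrays. The median absolute difference of the 79 probes called without old replicate 5 was 1.12 in that fit and 0.84 with all 10 arrays. For the 885 probes it was 0.73 without the 3 arrays and 0.47 with all 10 arrays. Of the 885 probes, 881 had the same sign with all 10 arrays, and all 14 genes named above kept their call.

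Without the 3 arrays, 12 of the 15 slow fibre genes were called higher (median 0.88), as were 12 of 21 macrophage markers (median 0.71), 9 of 16 denervation genes (median 0.88), 7 of 15 stretch sensors (median 0.58), 4 of 11 complement genes (C4b, C1qa, C1qb and C1qc, median 0.45) and 4 of 10 genes of MHC class II presentation (median 0.56). The median over all genes was -0.02. Myh7 then differed by 1.82 (adjusted p = 0.00795), Myh8 by 2.19 ± 0.16 (adjusted p = 4.13e-05), Ncam1 by 0.96 ± 0.15 (adjusted p = 0.00556), the receptor subunit Chrna1 by 1.22 ± 0.12 (adjusted p = 4.46e-04) and Lyz2, the macrophage lysozyme, by 1.13 (adjusted p = 0.00495). Of the matrix genes 3 of 39 were called lower (Col15a1, Col1a1 and Hspg2), with a median of -0.21. Glycolysis and glycogen genes had 6 of 24 called lower, Ldha, Eno3, Pygm, Ppp1r3c, Pkm and Phkg1, with a median of -0.24. In the same fit 3.45% of all genes were higher and 4.03% lower.

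The genes in which each of the 3 arrays departed most from its group were largely different. Eif4ebp2 was an extreme of both old replicate 5 and middle-aged replicate 5, in opposite directions. On old replicate 5 the genes farthest below the other 4 old mice were Tpm3, Myh7, Tnni1 and Tnnc1, which differed from their mean by -4.25, -4.21, -3.47 and -3.08 log2 units. The genes farthest above were Eif4ebp2, a repressor of translation initiation (11.25 against 7.13 to 8.58), Bach1, a haem-binding transcription factor (8.31 against 5.499 to 6.36), the adipocyte hormone gene Lep (9.84 against 6.79 to 7.95) and Odf3l2 (10.31 against 7.30 to 8.45). Although Lep is an adipocyte marker, the median of the 14 tested adipocyte markers was -0.20 on old replicate 5, against -0.47 to 0.35 on the other old arrays. Old replicate 3 was farthest above its group in Aif1l (10.42 against 7.49 to 8.25), the integrin gene Itgav (9.46 against 6.91 to 8.09) and the ubiquitin protease genes Usp53 and Usp9x, and farthest below in the cytokine signalling inhibitor Cish (6.65 against 8.07 to 9.43), Chad, Angptl7 and the matrix proteoglycan Fmod (5.91 against 7.27 to 8.20). Middle-aged replicate 5 was farthest above in the actin-severing gelsolin gene Gsn (7.51 against 4.71 to 5.44), the carbonic anhydrase gene Car3 of slow and fat-rich tissue (14.25 against 11.64 to 12.63), Plpbp and Nipsnap2, and farthest below in Eif4ebp2 (8.38 against 9.07 to 11.22), Bola2, Bcl9l and Pigt. These genes were picked as the extremes of each array and carry no test.

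The late step was set beside the early one in a fit of all 15 arrays, normalised together. In this fit 40 probes (0.332%) differed between old and middle-aged muscle and 2 (0.0166%) between middle-aged and young muscle, both of Kcnab1, a potassium channel subunit (1.41 and 1.57, adjusted p = 0.0141 and 0.00587). The middle-aged arrays enter both steps, so their values are not independent. The test of the difference between the steps called 3 probes (0.0249%), 1 of Krt18 and 2 of Dkk3. Without old replicate 5 there were 11, without young replicate 3 there were 5, and without any one of middle-aged replicates 1, 3, 4 or 5 there was 1. Krt18 averaged 4.41 in young, 4.50 in middle-aged and 7.13 in old muscle, and the measured late minus early difference was 2.54 ± 0.25 (adjusted p = 7.08e-05). No young and no middle-aged array detected it, so that this difference is set against background signal, its early part has no direction and the late rise has only the bound of at least 4.79-fold. Dkk3 averaged 8.84 in young, 10.45 in middle-aged and 8.82 in old muscle, with an early difference of 1.61, a late difference of -1.63 and a late minus early difference of -3.24 ± 0.51 (adjusted p = 0.0234). Its level at 28 months was thus near that at 5 months, with 9.27, 7.95, 9.33, 8.37 and 9.30 in the young mice. This call was lost without any one of middle-aged replicates 1, 3, 4 or 5 (adjusted p = 0.101 to 0.164), young replicate 4 (0.0574) or old replicate 4 (0.0588), with the difference between -2.96 and -3.27 in each case.

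For other called genes the difference between the steps did not pass this test with all 15 arrays. Sln averaged 7.68 ± 1.22 in young, 7.46 in middle-aged and 11.76 in old muscle (late minus early 4.52 ± 0.82, adjusted p = 0.0644), and Gadd45a 9.88, 9.67 and 11.15 (1.70 ± 0.30, adjusted p = 0.0644). Their early differences were -0.22 and -0.21. Both passed without old replicate 5 (4.89 for Sln and 1.84 for Gadd45a, adjusted p = 0.00749 in both) and with array weights (adjusted p = 0.0157 for Sln and 0.00421 for Gadd45a). Sln also passed without young replicate 3 or 5 (adjusted p = 0.0348 and 0.0223), with median scaling (0.0206), Z scores (0.0363) and the replicate block (0.00352), and Gadd45a also without old replicate 2 (1.81, adjusted p = 0.0288). Cpne2 averaged 7.37, 8.10 and 9.37 over the 3 ages and Nrep 12.48, 11.98 and 10.40, with early and late differences of the same sign in both (0.73 and 1.27 for Cpne2, -0.50 and -1.58 for Nrep). Among the gene lists, the median early difference was 0.04 for denervation genes, 0.14 for macrophage markers and 0.30 for slow fibre genes, beside late medians of 0.84, 0.55 and 0.20 in the same fit.

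**Figure D5:**
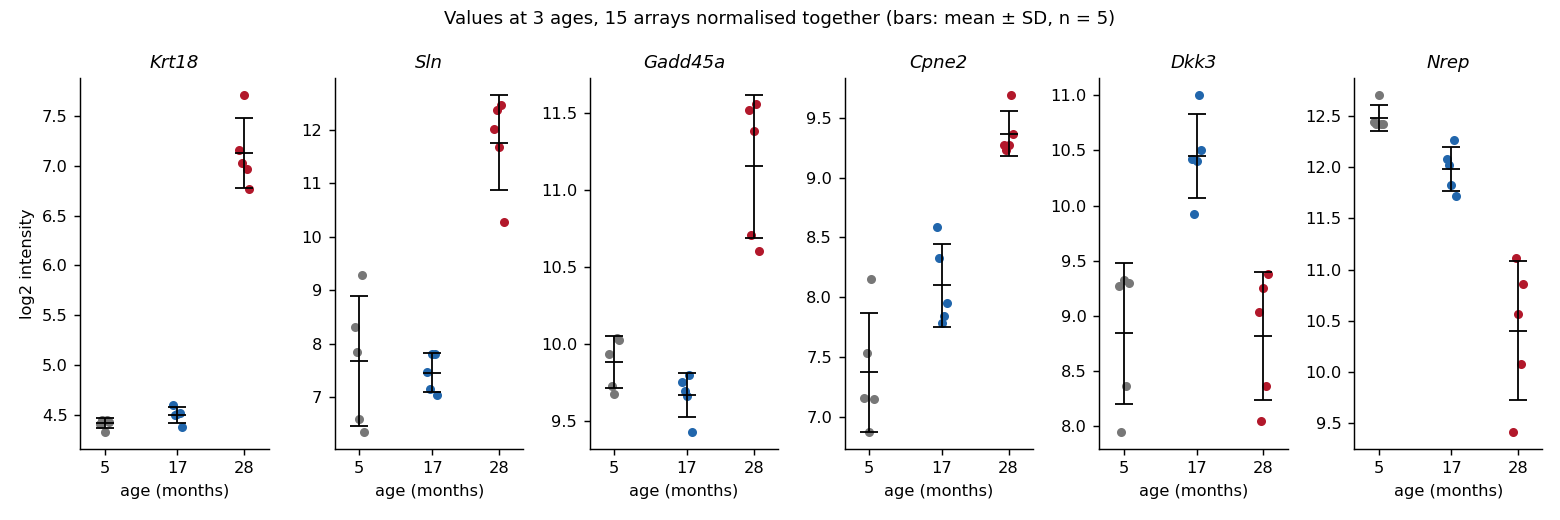
Log2 intensity of 6 genes in each mouse at 5, 17 and 28 months, from the 15 arrays normalised together, with bars for the mean ± SD of 5 mice per age. Krt18 stays at 4.41 and 4.50 on average up to 17 months and is at 7.13 at 28 months, whereas Dkk3 is highest at 17 months (10.45) against 8.84 at 5 months and 8.82 at 28 months.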

How the data were processed

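Gastrocnemius RNA from 5 old and 5 middle-aged mice, 1 array each, was compared, with 5 young arrays for the early step. The authors deposited raw bead intensity and detection p-values for 25697 probes, exported, per the submitters' processing notes, with GenomeStudio 2011.1. They also deposited Z score values (natural log, centred and scaled per array), which were recomputed from the intensities to within 0.000924 and used as an alternative. Intensities were corrected and quantile normalised with neqc (limma 3.58.1, R 4.3.3, background inferred from the detection p-values, offset 16). Probes whose detection p was below 0.05 on 5 or more of the 10 arrays were fitted with lmFit and eBayes with an intensity trend, two-sided, and adjusted by Benjamini-Hochberg over 12036 probes. Adjusted p under 0.05 was called. Fits without an array renormalised those kept and tested the same probes. Late minus early came from 15 arrays normalised together. The distance between arrays had a permutation test over all relabellings, in which the distances were not recomputed. Of these steps, the limma fit of the 10 arrays alone was tested on simulated data.

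Gene names came from the platform annotation, updated through a RefSeq gene table, for 23978 probes, and 1719 were unnamed. The named genes were up to 12 called, non-overlapping genes in each direction, up to 4 called members of each of 54 lists or otherwise the member with the lowest p, the 4 genes highest and 4 lowest on each of old replicates 3 and 5 and middle-aged replicate 5, and the called genes of late minus early. Any other gene was named with its values known. The comparison, the 3 arrays and the lists were chosen with earlier results of these data known. Alternatives changed the background correction, scaling, filter, probes per gene, samples, array weights, replicate block, moderation and arrays left out, and added the methods' t-test. Every per-sample column was used, and no comparison columns of the authors were read.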

Additional observations from a re-analysis of the deposited data

Results flagged for a closer look

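Single mice far from the other 4 of their age were looked for in 116 gene groups and 108 list groups, of which 8 and 11 held such a mouse by a test in which chance gives about 1 in 20 (5.8 of the gene groups). Old replicate 3 stood apart in Mef2a, a transcription factor of muscle (9.58 against 7.69 to 7.90 in the other old mice), in the lysosomal membrane gene Lamp2 (12.93 against 11.43 to 11.76) and in Blm, a DNA helicase (6.995 against 5.96 to 6.18). Old replicate 5 stood apart in the fast myosin light chain gene Myl1 (15.05 against 15.38 to 15.49) and in parvalbumin, Pvalb, a calcium buffer of fast fibres (14.95 against 15.38 to 15.49). Among middle-aged mice, replicate 5 stood apart in Lgals3 (9.25 against 8.03 to 8.26) and Thy1 (6.74 against 7.81 to 8.21), and replicate 4 in Mcam (8.38 against 7.97 to 8.04).

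As medians over a list, in deviations from the mean of the 10 arrays, old replicate 3 was high for the denervation response (0.998 against 0.20 to 0.33 in the other old mice). It was low for pericyte and smooth muscle markers (-0.39 against -0.02 to 0.07), chemokines and cytokines (-0.32 against 0.12 to 0.19) and cytosolic ribosomal proteins (-0.48 against 0.04 to 0.24). It was also low for antioxidant and glutathione genes (-0.40 against 0.03 to 0.16) and for autophagy and lysosome genes (-0.13 against 0.03 to 0.08). Old replicate 5 was low for enzymes of the TCA cycle and pyruvate metabolism (-0.40 against -0.00 to 0.14). Middle-aged replicate 5 was low for complex I (-0.32 against 0.07 to 0.16) and complexes II to V (-0.25 against 0.10 to 0.13), and high for the unfolded protein and integrated stress responses (0.15 against -0.10 to -0.03). Middle-aged replicate 1 was high for myostatin, activin and BMP signalling (0.13 against -0.01 to 0.02).

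The late and early steps differed by the test of the difference itself for Dkk3 (late minus early -3.24, adjusted p = 0.0234 by limma) and Krt18 (2.54, adjusted p = 7.08e-05 by limma). The call of Dkk3 was lost without some single arrays, as given above. Krt18 was detected on no young and no middle-aged array, so its value is set against background signal.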

How the results depend on the processing

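The 21 called probes became 13 with the methods' Z scores, 13 with the deposited scores, 40 with all 15 arrays in the fit and 224 with array weights. They numbered 9 to 79 without any one array, 115 with both old arrays 3 and 5 dropped, and 373 with old replicate 5 dropped together with middle-aged replicate 5. Without all 3 arrays there were 885. The arrays left out were those farthest from their groups, so this count measures their influence and is no second test. The methods' t-test passed 469 probes at its own threshold (145 higher and 324 lower) and 0 after Benjamini-Hochberg, with 1710 at an unadjusted p under 0.05. Residuals of same-numbered old and middle-aged arrays correlated at -0.53 to 0.13, with 1 of 5 pairs above 0.1, and 1 old array correlated best with its own number. These values showed no general pairing by replicate number. The labels do not say what the number stands for, and 5 pairs cannot exclude a shared condition. With the replicate block 6 called probes were left. The 3 probes of late minus early became 17 with array weights and 1 to 11 without any one array. The difference in array distance was 0.0549 to 0.166 without any one array, and it passed the test without middle-aged replicate 5 (0.155) and without old replicate 4 (0.166).

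By their brightest probes, Sln, Krt18, Rrad and Gadd45a kept their call under every alternative limma fit that tested them. Chrnb1 lost it in 17 of 28 such fits, Mfsd7a in 15 of 27 and Frzb in 12 of 26. The methods' t-test is not among these fits, and after Benjamini-Hochberg it called 0 probes, so no gene kept its call there. Over 58 named genes and 1615 comparisons, 1456 kept their side of the threshold, 76 lost it, 83 gained it and 0 changed sign. Of 1484 list medians under the alternatives, 52 moved by more than the spread between replicates. Dim genes such as Krt18 and Frzb are limited by background, where only a bound can be given. With the methods' Z scores the medians were 0.61 for denervation genes, 0.14 for p53 and senescence, 0.29 for macrophage markers and 0.12 for interferon response genes. The median over all genes was -0.02 with quantile normalisation, -0.07 with median scaling and -0.02 with the Z scores. The cause of these dependences was not tested.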
